A study of Rattus norvegicus with 4 samples.

Results

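The genes described here are 34 chaperones of the cytosol and the mitochondria: the heat shock proteins with their cochaperones and the regulator HSF1, the 8 subunits of the CCT chaperonin, and 5 subunits of prefoldin. They were picked out of 23360 gene symbols in the files by symbol and function, with earlier results of these data known. All 34 symbols were listed, and 31 of them had a mean of at least 1 TPM (transcripts per 1000000, a length-corrected abundance relative to all other transcripts of a sample) and were tested. The remaining 3, Hspa8, Hspa1b and Hspb1, lay below that level.

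Chaperones hold newly made or damaged proteins until they have folded. HSP70 proteins bind short exposed stretches of a client in cycles driven by ATP, J-domain proteins deliver the clients and start the cycle, and exchange factors end it. HSP90 takes over clients such as kinases and receptors from HSP70 with the help of cochaperones, whereas the ring-shaped CCT complex encloses actin and tubulin that prefoldin hands over. In the mitochondrial matrix, mortalin (Hspa9), HSP60 (Hspd1) with its lid HSP10 (Hspe1), and TRAP1 do the corresponding work. The transcription factor HSF1 switches on many of these genes through heat shock elements, repeated GAA and TTC units in DNA. Insulin, the main product of beta cells, folds in the endoplasmic reticulum, which has chaperones of its own.

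RNA came from INS-1 832/3, a beta-cell line of a rat insulinoma that carries a human insulin gene. In the monolayer (2D) group cells were grown on standard plastic, with no hydrogel. In the 3D group cells were bioprinted in GelXA LAMININK 411, a gelatin methacrylate hydrogel with laminin-411 that is hardened with light. Each group had 2 biological replicates, all harvested after 5 days at passage 3 and grown in the same medium. Printing, light, gel and growth in clusters came together in the 3D group and cannot be told apart, and the results hold for 1 cell line. Nothing in the labels states whether the replicates came from separately printed batches, so p-values measure the spread between these samples.

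Of the 10 beta-cell marker genes checked, 9 were listed, all above 1 TPM, with sums of 139632 to 161785 TPM per sample. Marker sums of endothelial cells, fibroblasts and blood cells were at most 1.68, 2.35 and 1.57 TPM. Acinar and ductal markers summed to 15.3 to 21.2 TPM. Among markers of other islet cells, Gcg, the glucagon gene, was at 41.9 and 73.85 TPM in monolayer and at 124 and 155 TPM in 3D. Mitochondrially encoded transcripts took 10.1% and 9.35% of TPM in monolayer and 13.0% and 12.3% in 3D. The part of these shifts in the chaperone results was not tested, beyond a scaling between samples whose factors ran from 0.960 to 1.02. TPM carry no read number, so no counting error is given.

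Chaperone transcripts were lower in 3D culture. Of the 31 genes tested, 23 fell, 1 rose and 7 did not pass an adjusted p of 0.05 in limma. Over all 11960 genes tested, 19.5% were called lower and 18.5% higher in 3D. The median log2 fold change (log2 change) of the members was -0.28, and that of all genes tested was -0.0031. Both 3D samples lay below both monolayer samples in 28 of the 31 genes, an order found in 38.2% of all genes tested. Summed, the 34 genes made up 1.085% and 1.055% of monolayer TPM and 0.931% and 0.892% of 3D TPM. These sums averaged 10700 TPM in monolayer and 9114 TPM in 3D and lean on Hspe1, which averaged 3119 and 2446 TPM. Hspa8 entered them at close to 0 TPM. In bulk RNA, fewer cells that express a gene and less RNA per cell give the same value. The falls were modest, from 12.9% for Cct6a to 34.2% for Ahsa1.

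**Figure D1:**
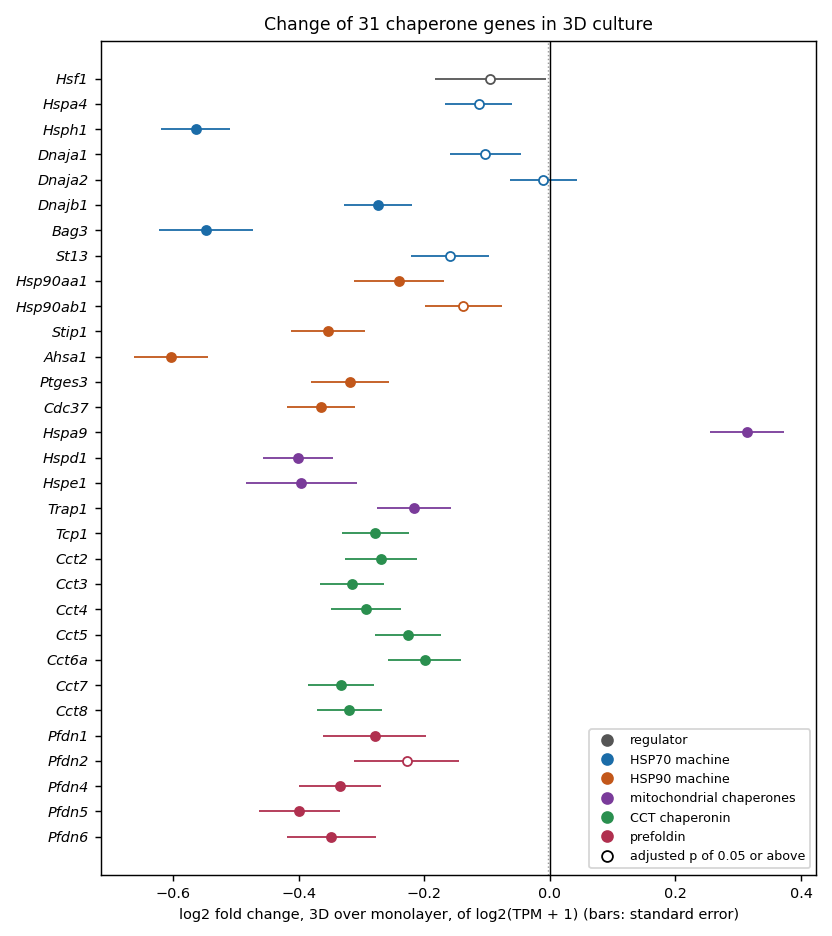
Log2 fold change of the 31 tested chaperone genes in 3D over monolayer culture (x axis; points with standard errors, n = 2 per group), coloured by role; open points did not pass an adjusted p of 0.05. All points but that of Hspa9 lie left of 0, although that of Dnaja2 turns to above 0 without scaling, and Ahsa1, Hsph1 and Bag3 lie farthest left.

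The number of calls depended on the 3D replicates. With 3D replicate 1 left out, no member kept its call in limma. That fit called 136 genes of 11921 in all. With 3D replicate 2 left out, most members lost their call, whereas most calls stayed without monolayer replicate 1 or 2. Without 3D replicate 1 or 2, the median log2 change of the members was -0.31 and -0.26. Without monolayer replicate 1 or 2, it was -0.31 and -0.27. That of all genes tested ran from -0.0051 to -0.0022 in these fits. Between 29 and 30 members had a log2 fold change below 0 in each of these 4 fits. This was nearly fixed in advance, because both 3D samples lay below both monolayer samples in 28 of the 31 genes. In the fit with all samples, 50.5% of all genes tested were below 0.

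Hsf1 encodes the regulator of the heat shock response. Its transcript was at 22.1 and 20.5 TPM in monolayer and at 18.7 and 22.3 TPM in 3D. The groups overlapped, with a log2 change of -0.09 (SE, the standard error, 0.089, limma adjusted p = 0.425), and the sign turned without 3D replicate 1. Among 3 other genes of HSF control, Hsf2, Hsf4 and the HSF1-binding protein Hsbp1, none passed the test, against the 19.5% of genes called lower and 18.5% called higher. Hsbp1 was at 167 and 172 TPM in monolayer against 149 and 157 TPM in 3D (limma adjusted p = 0.0632).

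Heat shock elements were looked for in the promoters of the members, since many of them moved together. RefSeq promoter sequences of the GRCr8 rat assembly, 250 bases before to 50 bases after the start, were matched by symbol for 29 of the 34 members, leaving out Hsf1, Hspa1b, Dnaja2, St13 and Hsp90aa1. Searched were 2 units in opposite direction (GAANNTTC or TTCNNGAA, each of which reads the same on both strands) and 3 units (GAANNTTCNNGAA or TTCNNGAANNTTC, the reverse complements of each other, each of which also contains both motifs of 2 units). At least 1 motif of 2 units was in 14 of the 29 windows (48.3%), and in 15.9% of all 33469 promoter windows. A motif of 3 units was in 6 of the 29 (20.7%) and in 0.798% of all windows. The heat shock proteins and cochaperones held most of them: 11 of 16 windows had 2 units, compared with 3 of 13 windows of CCT and prefoldin genes. Of the 22 members that fell and had a window, 10 held the motif of 2 units (45.5%, beside 48.3% of all members with a window). The share of all members includes these 22 and the untested Hspa8 and Hspb1, which both held it. Of the 4 with a window that were tested and not called, 1 held the motif of 2 units. The motif of 3 units was in 4 of the 22 that fell (18.2%), Hsph1, Hspd1, Hspe1 and Cct4. It was also in 1 of the 4 not called, Dnaja1. Ahsa1, which fell most, had no match. Whether motif and fall go together was not tested. The windows of Hspd1 and Hspe1 overlap and hold the same run of motifs, which is counted for both genes in these shares. A match is a run of letters and not evidence of binding.

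The stretches below are shown because they hold the motifs, which are in capitals, and because their genes cover the longest run of units printed (Hspe1), the largest HSP70-side falls (Hsph1, Bag3), an HSP90 cochaperone (Stip1) and the gene that rose (Hspa9). All are given 5′ to 3′ on the strand of the gene and end before its start.
Hspe1, chr9:64084207-64084326, plus strand: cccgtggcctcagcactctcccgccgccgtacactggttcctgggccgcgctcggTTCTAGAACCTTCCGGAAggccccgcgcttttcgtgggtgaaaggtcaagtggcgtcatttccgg
Hsph1, chr12:10427248-10427367, plus strand: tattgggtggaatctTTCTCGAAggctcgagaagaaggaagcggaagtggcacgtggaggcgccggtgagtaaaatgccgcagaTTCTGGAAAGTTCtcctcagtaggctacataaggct
Bag3, chr1:192533310-192533369, plus strand: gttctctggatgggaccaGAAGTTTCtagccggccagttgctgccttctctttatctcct
Stip1, chr1:213657655-213657714, minus strand: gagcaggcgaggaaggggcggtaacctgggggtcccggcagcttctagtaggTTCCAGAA
Hspa9, chr18:26828459-26828518, minus strand: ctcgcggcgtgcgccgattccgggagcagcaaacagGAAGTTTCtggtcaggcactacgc

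Within the HSP70 machine, 3 of the 7 genes tested fell, namely Hsph1, Bag3 and Dnajb1, where 19.5% of all genes were called lower. Hsph1, which encodes HSP110, an exchange factor of HSP70, was at 60.3 and 57.7 TPM in monolayer and at 39.7 and 41.95 TPM in 3D. The groups were well apart, and the fall was 32.4% (log2 change -0.56, SE 0.055, limma adjusted p = 0.0042). Bag3 encodes an exchange factor that directs clients to autophagy. It was at 31.85 and 29.8 TPM in monolayer and at 20.0 and 22.9 TPM in 3D, a log2 change of -0.55 (limma adjusted p = 0.0069). Dnajb1, the main stress-induced J-domain protein of the cytosol, went from 40.6 and 39.1 TPM to 33.5 and 34.1 TPM, a smaller fall of 17.3% (limma adjusted p = 0.0157).

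The other 4 genes of the HSP70 machine did not pass the test. Dnaja1, a J-domain protein of general protein folding, had 371 and 369 TPM in monolayer against 356 and 354 TPM in 3D, with a log2 change of -0.10 (SE 0.056, limma adjusted p = 0.192). Its relative Dnaja2 was at 142 and 138 TPM in monolayer against 145 and 141 TPM in 3D. These groups overlapped, and the sign of its log2 change of -0.01 depended on the scaling. Hspa4, an HSP110-type exchange factor like Hsph1, was at 116 and 107 TPM against 107 and 106 TPM (limma adjusted p = 0.141). St13, which encodes the HSP70-interacting protein HIP, was lower in both 3D samples with a log2 change of -0.16 (limma adjusted p = 0.0942). No test of the difference between these genes and Hsph1, Bag3 and Dnajb1 was made.

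The 3 members below the filter were not tested. Hspa8 encodes HSC70, the constitutive HSP70 that is abundant in nearly all cells, yet it was listed at 0.0956 and 0.102 TPM in monolayer and at 0 in both 3D samples. Actg1, the gene of gamma-actin, was likewise listed at 0 in all 4 samples, and nothing on the expression of these genes is read from such values. Hspb1, which encodes the small heat shock protein HSP27, was listed at 0 in all 4 samples. Hspa1b encodes an inducible HSP70 whose sequence is nearly identical to that of Hspa1a, and reads of the 2 genes can be confused. Hspa1a was not among the symbols listed, so the values of Hspa1b may hold reads of both. Hspa1b was at 0.325 and 0.266 TPM in monolayer and at 1.05 and 1.53 TPM in 3D. Both 3D values were above both monolayer values, but the mean lay below the level for testing. Without the filter the log2 fold change of Hspa1b was 0.78 (limma adjusted p = 0.0230), the opposite sign to those of Hsph1, Dnajb1 and Bag3. The same fit called Hspa8 lower (log2 change -0.14, limma adjusted p = 0.0495), from values so near 0 that nothing is read from the call.

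In the HSP90 machine, 5 of 6 genes fell, where 19.5% of all genes were called lower. The greatest falls were among the cochaperones, although their difference from HSP90 itself was not tested. Ahsa1 encodes AHA1, which stimulates the ATPase of HSP90. It was at 89.9 and 91.5 TPM in monolayer and at 60.85 and 61.5 TPM in 3D. This was the largest fall among the members, 34.2% (log2 change -0.60, SE 0.059, limma adjusted p = 0.0041). Cdc37, which brings kinases to HSP90, went from 203 and 202 TPM to 161 and 162 TPM, a log2 change of -0.36 (limma adjusted p = 0.0081). Stip1, the gene of HOP, which bridges HSP70 and HSP90, was at 317 and 283 TPM in monolayer and at 236 and 247 TPM in 3D. Its monolayer replicates were the more spread, and its log2 change was -0.35 (limma adjusted p = 0.0102). Ptges3, which encodes p23, the cochaperone that stabilizes closed HSP90, had a log2 change of -0.32 (limma adjusted p = 0.0153).

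The HSP90 genes themselves were among the most abundant members. Hsp90ab1, the constitutive form, had 1698 and 1605 TPM in monolayer against 1548 and 1545 TPM in 3D, which did not pass the test (log2 change -0.14, SE 0.062, limma adjusted p = 0.127). Hsp90aa1, the inducible form, had 698 and 720.0 TPM in monolayer against 636 and 602 TPM in 3D, a log2 change of -0.24 (SE 0.072, limma adjusted p = 0.0475). Its call held under 5 of the 11 other settings (adjusted p from 0.0333 to 0.0719). The ratio of Hsp90ab1 to Hsp90aa1 in TPM was 2.432 and 2.23 in monolayer and 2.434 and 2.57 in 3D. The groups did not overlap, but the lower 3D ratio and the higher monolayer ratio were almost equal.

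**Figure D2:**
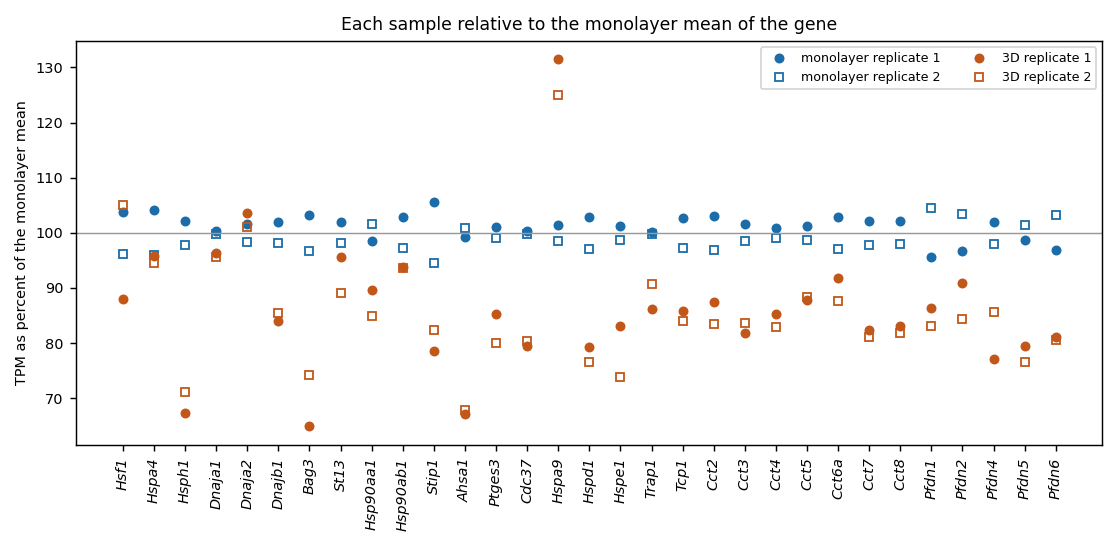
TPM of each sample as a percentage of the monolayer mean of the gene (y axis) for the 31 tested members (x axis); circles are replicate 1, open squares replicate 2, blue monolayer and orange 3D. The orange points of Hspa9 stand above all others, and the lowest points are those of Bag3, Hsph1 and Ahsa1, apart from Bag3 in 3D replicate 2, which lies beside Hspe1 in the same replicate.

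The mitochondrial chaperones moved in opposite directions. Hspa9 encodes mortalin, the HSP70 of the matrix, which pulls imported proteins in and folds them. It was at 191 and 185 TPM in monolayer and at 247 and 235 TPM in 3D. It was the only member tested that rose, by 24.3% (log2 change 0.31, SE 0.059, limma adjusted p = 0.0134). Its fold change stayed above 0 in the 11 other settings, of which the empirical Bayes options, replicate block and threshold cannot change it. With each sample left out the fold change also stayed above 0, which was nearly fixed because its groups did not overlap. The call was lost without 3D replicate 1 (limma adjusted p = 0.117) or 2 (0.0629). Hspd1, the gene of HSP60, was at 379 and 358 TPM in monolayer and at 292 and 283 TPM in 3D. It fell by 24.3% (log2 change -0.40, SE 0.056, limma adjusted p = 0.0070). The TPM ratio of Hspa9 to Hspd1 was 0.503 and 0.518 in monolayer and 0.847 and 0.833 in 3D. The groups of this ratio did not overlap, which was fixed because Hspa9 was higher and Hspd1 lower in both 3D samples. An exact two-sided permutation test of 2 against 2 samples also cannot give a p below 0.33.

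Hspe1, which encodes HSP10, the lid of HSP60, was the most abundant member. It was at 3159 and 3078 TPM in monolayer and at 2589 and 2304 TPM in 3D, a log2 change of -0.40 (SE, the standard error, 0.089, limma adjusted p = 0.0214). Its 3D samples were more spread than those of Hspd1, and it did not pass with any single sample left out (adjusted p from 0.0517 to 0.136). Hspd1 and Hspe1 lie head to head on rat chromosome 9. Their promoter windows share 211 of 300 bases, including the run of heat shock elements printed above for Hspe1. The window of Hspd1 was set on a start at base 64084037. Its gene record reaches to base 64084332, past the start of Hspe1 at 64084327. Whether this run lies before the start of Hspd1 thus depends on the start chosen. The TPM ratio of Hspe1 to Hspd1 was 8.33 and 8.61 in monolayer and 8.865 and 8.155 in 3D, and these ratios overlapped between the groups. Both genes have processed pseudogenes with which reads can be shared, which makes their levels uncertain. Trap1, the HSP90 of mitochondria, was at 53.95 and 53.8 TPM in monolayer and at 46.4 and 48.9 TPM in 3D (log2 change -0.22, limma adjusted p = 0.0358), and passed in 8 of the 11 other settings.

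All 8 CCT subunits fell, with log2 fold changes from -0.33 to -0.20, where 19.5% of all genes were called lower. Cct7 had the largest change, from 291 and 279 TPM in monolayer to 235 and 231 TPM in 3D (log2 change -0.33, SE 0.053, limma adjusted p = 0.0093). Cct8 (-0.32, adjusted p = 0.0099) and Cct3 (-0.32, limma adjusted p = 0.0098) were close behind. Cct4 went from 282 and 277 TPM to 238 and 232 TPM, Tcp1 from 270 and 256 TPM to 226 and 221 TPM, and Cct2 from 242 and 228 TPM to 206 and 196 TPM. In each of these the higher 3D sample was below the lower monolayer sample. Cct5 had a log2 change of -0.23 (limma adjusted p = 0.0239). Cct6a changed least, from 337 and 318 TPM to 301 and 287 TPM (log2 change -0.20, SE 0.058, limma adjusted p = 0.0438), and passed in 6 of the 11 other settings and in none of the 4 fits with a sample left out (adjusted p from 0.0797 to 0.248).

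The CCT ring holds 1 copy of each subunit, and its transcripts were within a narrow range. The TPM of the highest subunit, Cct6a, was 1.89 and 1.86 times that of the lowest, Cct8, in monolayer and 2.07 and 2.01 times in 3D. In monolayer the order of mean levels was Cct6a, Cct5, Cct7, Cct4, Tcp1, Cct2, Cct3 and Cct8. Neighbours such as Cct6a with Cct5 and Cct7 with Cct4 overlapped in their monolayer replicates. The share of Cct8 in the summed CCT level was 8.41% in both monolayer samples and 8.12% and 8.15% in 3D, whereas Cct6a took 15.9% and 15.6% in monolayer and 16.8% and 16.35% in 3D. Summed over the 8 subunits, the level was 2124 and 2037 TPM in monolayer against 1791 and 1756 TPM in 3D.

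**Figure D3:**
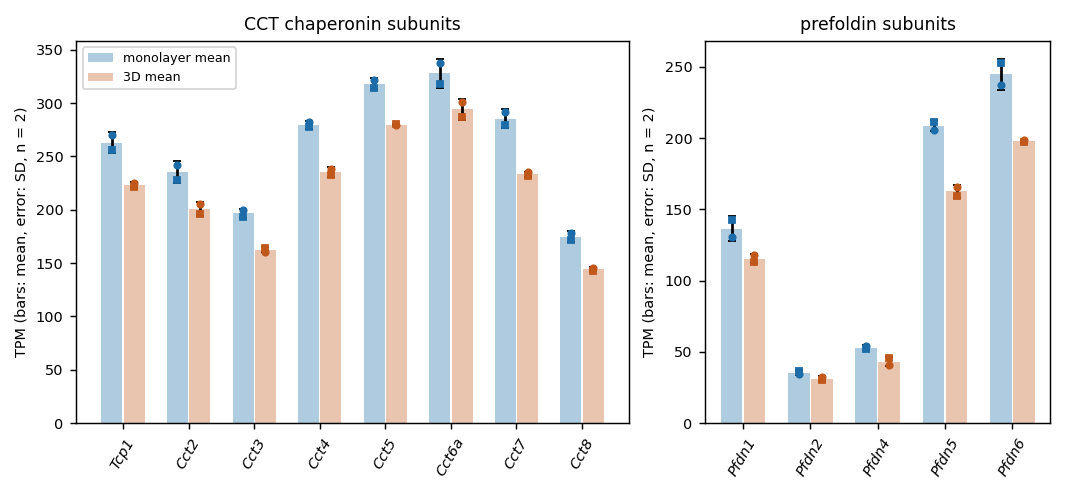
TPM of the 8 CCT subunits (left) and the 5 prefoldin subunits (right), as group means with SD (bars, n = 2) and single samples (points; circles replicate 1, squares replicate 2). Each 3D bar is shorter than the monolayer bar beside it, and Pfdn2 and Pfdn4 stand far below the other prefoldin subunits.

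Prefoldin delivers unfolded actin and tubulin to CCT. Of its 5 members here, 4 fell, where 19.5% of all genes were called lower. Pfdn5 was at 206 and 211 TPM in monolayer and at 166 and 160 TPM in 3D, a log2 change of -0.40 (SE 0.065, limma adjusted p = 0.0099). Pfdn6 went from 237 and 252 TPM to 199 and 197 TPM and Pfdn4 from 54.1 and 52.0 TPM to 40.9 and 45.45 TPM, with log2 fold changes of -0.35 and -0.33. Their 3D values lay below all monolayer values. Pfdn1 had a log2 change of -0.28 (limma adjusted p = 0.0445) and passed in 7 of the 11 other settings. Pfdn2, at 34.3 and 36.7 TPM in monolayer against 32.2 and 29.9 TPM in 3D, did not pass (log2 change -0.23, limma adjusted p = 0.0777). The remaining subunit of the complex, Vbp1, which was not among the members, was at 28.9 and 29.2 TPM in monolayer and at 25.8 and 26.1 TPM in 3D (log2 change -0.20, limma adjusted p = 0.0511). Levels of prefoldin subunits were far less even than those of CCT, the TPM of Pfdn6 being 6.91 and 6.88 times that of Pfdn2 in monolayer and 6.16 and 6.59 times in 3D.

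In 7 members the files list several transcripts, 21 in all, of which 17 could be tested in a fit over 15020 transcripts. The test was added after the values had been seen. Of the most abundant transcript of each gene, 6 of 7 fell, and 12.7% of all transcripts tested were called lower. Of the 10 less abundant transcripts, 3 rose, none fell, and 8 had a fold change above 0, while 10.8% of all transcripts were called higher. The 3 were minor transcripts of CCT genes. ENSRNOT00000092556.1 of Cct3 was at 1.76 and 1.64 TPM in monolayer and at 3.14 and 4.00 TPM in 3D (log2 change 0.71, limma adjusted p = 0.0358). ENSRNOT00000093152.1 of Cct6a went from 2.31 and 1.95 TPM to 5.68 and 4.29 TPM, and ENSRNOT00000093591.1 of Cct6a from 0.437 and 0.689 TPM to 2.18 and 2.63 TPM. They rose while the main transcripts of the same genes fell, though each is a small part of its gene. Transcripts were kept by their mean over all 4 samples. ENSRNOT00000093591.1 of Cct6a and ENSRNOT00000092723.1 of Pfdn6 averaged 0.563 and 0.889 TPM in monolayer and were tested only through their higher 3D values. The counts of 3 that rose and 8 above 0 are raised by this filter.

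**Figure D4:**
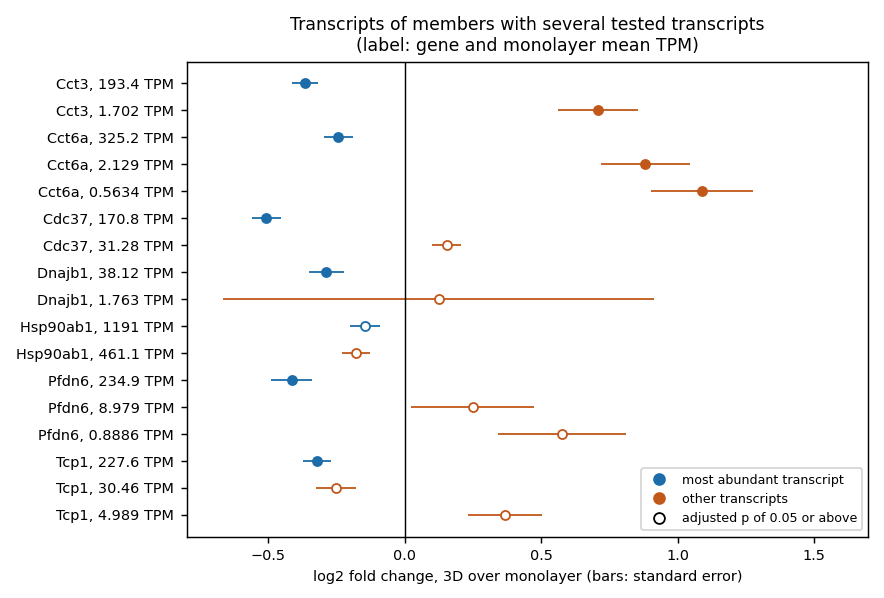
Log2 fold change in 3D over monolayer culture (x axis; points with standard errors, n = 2 per group) of 17 transcripts of the 7 members with several listed transcripts, labelled by gene and monolayer mean TPM; open points did not pass an adjusted p of 0.05. The most abundant transcripts (blue) all lie left of 0, and 8 of the 10 others (orange) lie right of it. Orange points labelled below 1 TPM passed the filter only through their 3D values.

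Among the less abundant transcripts with a fold change above 0, that of Cdc37 had the highest level, though it did not pass the test. Its main transcript, ENSRNOT00000042314.3, was at 171 TPM in both monolayer samples and at 125 TPM in both 3D samples (log2 change -0.51, limma adjusted p = 0.0174). The second, ENSRNOT00000079949.1, was at 31.7 and 30.8 TPM in monolayer and at 35.8 and 37.1 TPM in 3D (log2 change 0.15, limma adjusted p = 0.103). Taking the main transcript alone, the fall of Cdc37 was thus larger than that of the sum. The division of reads among overlapping transcripts is an estimate of the quantification, and its error is not in the files.

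Other genes of the same pathways were taken from lists by function. Of the 93 tested out of 104, 33 fell and 4 rose, with 19.5% and 18.5% as the shares of all genes. HSP90 cochaperones beyond the members fell in 12 of 19 cases and rose in none. Among them Nudcd2 was at 39.9 and 39.3 TPM in monolayer and at 26.7 and 27.4 TPM in 3D (limma adjusted p = 0.0042). Chordc1 and Ppid, the latter a prolyl isomerase bound to HSP90, had log2 fold changes of -0.61 and -0.50. Of the further HSP70 family members and exchange factors, 5 of 12 fell, among them the exchange factors Bag1 (-0.51) and Hspbp1 (-0.30) and the ribosome-associated HSP70 Hspa14 (-0.37), while Hspa12a, a distant HSP70 relative, rose (0.48). Small heat shock proteins were mostly near 0, and the 2 tested fell: Hspb6 (-0.50) and Hspb11 (-0.43), which works in transport along cilia. The 6 of 27 further J-domain proteins that fell, and the 3 that rose, are near or below the share of all genes so no shift of that family can be read from them. Dnajc16 and Dnajc21 rose (0.30 and 0.38), as did Dnajb4, a cytosolic relative of Dnajb1, from 22.85 and 21.0 TPM to 30.15 and 29.4 TPM (limma adjusted p = 0.0093).

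Grpel1, Dnaja3 and Dnajc15, partners of Hspa9 that were named for their small p, fell. The full set of its partners was not counted. Grpel1, its exchange factor, was at 116 TPM in both monolayer samples and at 92.7 and 97.7 TPM in 3D (log2 change -0.33, limma adjusted p = 0.0111). Grpel2, the other exchange factor of the matrix, was at 12.2 and 11.95 TPM in monolayer against 13.8 TPM in both 3D samples and did not pass (log2 change 0.14, limma adjusted p = 0.146). Dnaja3, a J-domain protein of the matrix, fell with a log2 change of -0.38 (limma adjusted p = 0.0070), and Dnajc15, a J-domain protein of the import channel, from 23.9 and 24.4 TPM to 15.6 and 14.4 TPM. Over the other mitochondrial chaperones and proteases, 6 of 15 fell and none rose, where 19.5% of all genes were called lower and 18.5% higher. Among those that fell were the disaggregase Clpb (-0.41) and the prohibitin Phb (-0.34). Among cofactors of CCT and of tubulin folding, 2 of 9 fell, Tbca (-0.27) and Tbcd (-0.30), a share near that of all genes. No ribosome-associated factor (2 tested) and none of the 4 other prefoldin and prefoldin-like genes passed the test, against the same shares of all genes.

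**Figure D5:**
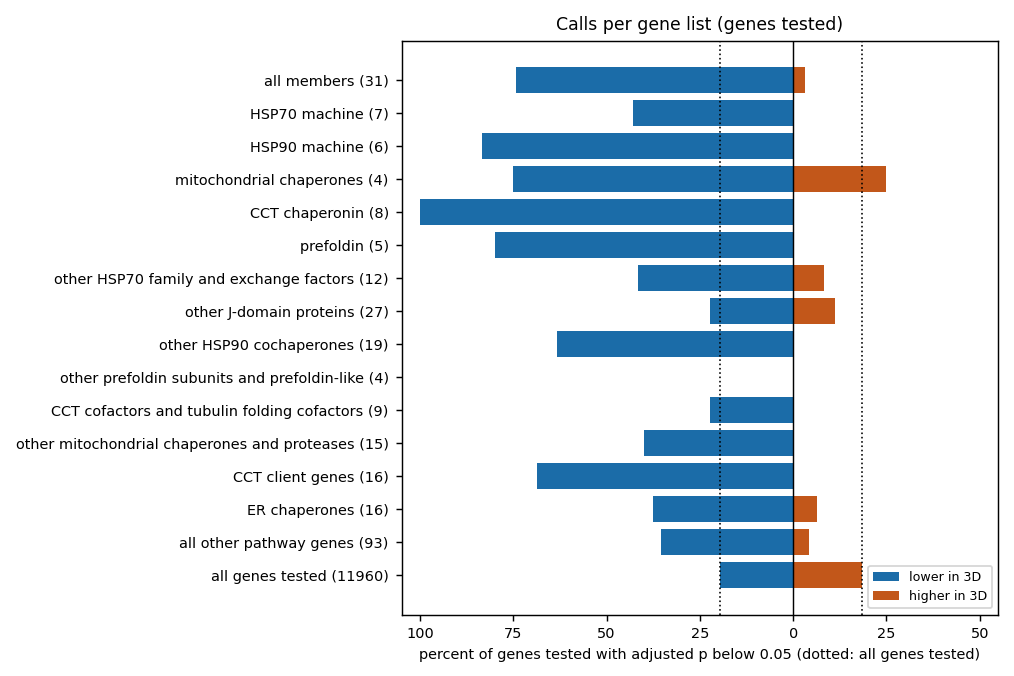
Percentage of the tested genes of each list (number in brackets) called lower (blue, to the left) or higher (orange, to the right) in 3D at an adjusted p below 0.05; lists with fewer than 4 tested genes are left out, and dotted lines mark 19.5% and 18.5%, the shares of all 11960 genes tested. The CCT bar reaches 100%, the HSP90 machine 83.3% and prefoldin 80.0%, while further J-domain proteins and CCT cofactors lie near the dotted line.

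Genes for clients of CCT fell in 11 of 16 cases and rose in none, where 19.5% of all genes were called lower and 18.5% higher. Of the 9 tubulin genes tested, 8 fell, among them Tubg1, with 82.1 and 79.8 TPM in monolayer against 60.2 and 59.8 TPM in 3D (log2 change -0.47, limma adjusted p = 0.0050). Cdc20, an activator of the anaphase-promoting complex that CCT folds, had the smallest p of the list, with a log2 change of -0.71. Actb, the gene of beta-actin and the other main client, was at 1183 and 1136 TPM in monolayer and at 1250 and 1247 TPM in 3D (log2 change 0.06, limma adjusted p = 0.426). It was not called in either direction, and its difference from the tubulins was not tested. Chaperones of the endoplasmic reticulum fell in 6 of 16 cases and rose in 1, against the same shares of all genes. Creld2 (-1.12) and Dnajb11 (-0.63) had the smallest p, and P4hb, a disulfide isomerase, rose (0.25). Whether their share differs from that of the 31 members was not tested.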

How the data were processed

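RNA of 4 INS-1 832/3 cultures (2 monolayer, 2 3D) was analysed, with groups and replicate numbers from the labels. The authors quantified reads per transcript with Salmon 1.2 after FastQC 0.11.8, on an rn4 reference with human insulin added, and deposited TPM written with decimal commas. Each sample summed to 1000000. Their DESeq2 test needs counts, which TPM are not, and was not repeated.

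The transcripts of each symbol were added up, and genes averaging at least 1 TPM were kept. Samples were scaled by unweighted TMM, the trimmed mean of log ratios (trims of 30% for ratios and 5% for mean levels at each end). Scaled values, as log2(TPM + 1), entered limma 3.58.1 with an intensity trend (R 4.3.3), and p-values were adjusted over all genes tested after Benjamini and Hochberg, with 0.05 as the threshold. Printed TPM are as deposited. Fold changes are after scaling, and the added 1 understates those of low genes. Members and lists were chosen with earlier results of these data known. All members are named, and of other lists the 3 called genes of smallest p with at least 10 TPM on average, or the 2 of smallest p for clients and endoplasmic reticulum chaperones. Actb, Actg1, Gcg, Vbp1, Hsf2, Hsf4, Hsbp1, Hspa12a, Dnajc16, Dnajc21, Grpel2 and P4hb were named, and the transcript test was added, after their values were seen. The fit was run on simulated TPM with the same spread for every gene and few genes changed. That is a check of the code and cannot show that the calls made here are sound. Alternatives were the scaling, filter, pseudocount, empirical Bayes options, replicate block, threshold, transcript choice and each sample left out. Promoters are RefSeq sequences of GRCr8, a build other than that of the files.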

Additional observations from a re-analysis of the deposited data

How the results depend on the processing

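Over 11 settings other than leaving out a sample, the results for single members kept direction and side of the threshold in 309 cases. They lost the call in 30 and turned sign in 2. Both turns were for Dnaja2, whose log2 fold change was 0.033 without scaling and 0.014 with a mean of at least 5 TPM. The empirical Bayes options, replicate block and threshold cannot change a fold change, so direction was fixed under them. Members called lower numbered 23, and 19 to 23 in all settings but an adjusted p below 0.01. That threshold left 9 members lower and 0 higher, and 11 other pathway genes lower and 1 higher. Of all 11960 genes tested, it left 694 lower and 724 higher. Without an expression filter 2 members (Hspa9 and Hspa1b) and 2 other pathway genes were higher. With each sample left out in turn, members called ran from 0 to 22 lower and from 0 to 1 higher, and other pathway genes from 0 to 35 lower and from 0 to 5 higher. A lone sample was then assumed to vary like the other group. Of the results for single members with a sample left out, 67 were unaffected, 53 lost the call, 1 gained it and 3 turned sign. The signs that turned were those of Hsf1 (from -0.203 to 0.016) and Dnaja2 (from -0.039 to 0.021). Losses were most frequent without 3D replicate 1.

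Samples with the same replicate number did not deviate together (correlation -0.006 across genes), and the replicate block called 21 members lower and 1 higher, losing Hsp90aa1 and Cct6a. TPM hold no depth, so low genes such as Hspa1b cannot be given a counting error.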
